A study of Mus musculus with 6 samples.

Results

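The angiotensin and natriuretic peptide system was followed through 10 genes, taken by gene name from the deposited count table and found there once each, of 54532 genes in all. They encode peptides (Agt, Nppb, Nppc), peptidases (Ace, Mme) and receptors (Agtr1a, Agtr1b, Npr1, Npr2, Npr3). Poly-A RNA-seq had been made from 3 female and 3 male libraries of untreated wild-type primary cultures labelled as mouse aortic endothelial cells. The medium was F-12 with serum, heparin and endothelial growth factors, and neither the strain nor the age of the mice is given. Whether the 3 libraries per sex stem from different mice or different dishes is not stated, and p-values therefore cover the spread among these libraries alone, which may be technical.

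Angiotensinogen, the product of Agt, is cut by renin to angiotensin I, and angiotensin-converting enzyme (Ace) trims this to angiotensin II, which constricts vessels through the type 1 receptors that rodents encode in Agtr1a and Agtr1b. The natriuretic peptides oppose it. Atrial and B-type peptide act on Npr1 and C-type peptide acts on Npr2, both of which are receptors that make cyclic GMP, while Npr3 takes up and clears all of these peptides. Neprilysin, the product of Mme, degrades natriuretic peptides and angiotensins. In the vessel wall, endothelium is a classical site of Ace and of C-type natriuretic peptide.

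The peptides themselves are short, and the bases that encode them are shown because 3 of the members are known by these products. In the GENCODE M21 transcripts, angiotensin I is encoded by 30 bases of the Agt transcript, and the ring that all natriuretic peptides share by 51 bases each of Nppb and Nppc. Capitals in the natriuretic rings mark bases that are equal in both, which was so at 40 of 51 positions (13 of 17 encoded residues), and Agt is in lower case throughout.
Agt: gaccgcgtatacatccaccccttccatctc
Nppb: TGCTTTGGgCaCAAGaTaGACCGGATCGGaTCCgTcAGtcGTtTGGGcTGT
Nppc: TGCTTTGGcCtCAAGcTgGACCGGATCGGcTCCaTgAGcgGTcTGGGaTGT

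The promoters of the 3 peptide genes and of Npr1 are shown because the peptide genes all stood lower in female libraries and Npr1 stood higher. Those of Ace and Npr3, also called, are not shown, and the Npr3 window did not match a GENCODE M21 transcript. Each shown window is the 250 bases before the RefSeq start in GRCm38.p6, read on the gene's strand, and capitals mark every motif found. The search on both strands was for the TATA box TATAAA, the CCAAT box, the GC box spelled GGGCGG, the GATA-type sites spelled AGATAA or, with another leading base, TGATAA, the M-CAT site spelled CATTCC, the AP-1 site spelled TGACTCA, plus the STAT-type site spelled TTCNNNGAA.
Agt, chr8:124569707-124569956 (minus strand): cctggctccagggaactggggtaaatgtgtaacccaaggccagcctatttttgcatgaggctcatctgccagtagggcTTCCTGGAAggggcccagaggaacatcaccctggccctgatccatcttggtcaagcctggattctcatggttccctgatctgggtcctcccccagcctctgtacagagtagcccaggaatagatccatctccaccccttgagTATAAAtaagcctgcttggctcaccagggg
Nppb, chr4:147985650-147985899 (plus strand): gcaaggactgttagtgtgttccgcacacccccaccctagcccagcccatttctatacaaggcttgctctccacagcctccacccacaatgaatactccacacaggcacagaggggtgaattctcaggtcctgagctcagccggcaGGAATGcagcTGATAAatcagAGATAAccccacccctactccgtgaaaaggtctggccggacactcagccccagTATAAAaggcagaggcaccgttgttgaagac
Nppc, chr1:86670574-86670823 (minus strand): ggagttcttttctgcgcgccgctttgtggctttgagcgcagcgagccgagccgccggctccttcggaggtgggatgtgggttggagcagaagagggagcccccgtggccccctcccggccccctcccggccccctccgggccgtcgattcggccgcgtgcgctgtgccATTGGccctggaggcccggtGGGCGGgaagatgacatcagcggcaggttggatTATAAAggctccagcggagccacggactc
Npr1, chr3:90465867-90466116 (minus strand): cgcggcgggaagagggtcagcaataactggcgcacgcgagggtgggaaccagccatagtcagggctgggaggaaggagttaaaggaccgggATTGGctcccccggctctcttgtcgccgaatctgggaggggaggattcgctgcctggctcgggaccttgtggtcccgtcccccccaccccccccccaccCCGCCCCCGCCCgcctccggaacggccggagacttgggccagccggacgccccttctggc

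All 3 peptide genes held TATAAA, its first base 30 bases before the start in Agt, 31 in Nppb and 29 in Nppc, and Npr1 held none. The motif did not follow the peptide genes alone, since among the members with a window Agtr1b also held it, 31 bases before its start, and Ace held it on the other strand at the same distance. Of 32817 such windows over all genes, 12.4% held TATAAA. This share and those below count a match anywhere in the window on either strand. The share of windows with TATAAA at this distance was not measured. The Nppb window also held both GATA-type sites, of which TGATAA was found in 7.95% of windows whereas AGATAA was found in 9.99%, plus the M-CAT site on the other strand (12.6%). All marked Nppb motifs, TATAAA included, lie inside the gene as deposited, which starts at chr4:147985788. They precede the RefSeq start only. Agt held a STAT-type site (7.01% of windows). Nppc held a CCAAT box on the other strand (33.8%) plus a GC box (32.7%). Npr1 held a CCAAT box plus a pair of adjoining GC boxes, all on the other strand. No match in these 4 windows overlapped another, and a match is a description of the letters only.

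The members spanned a wide range of levels. Per length, as CPM (counts relative to each library's TMM-scaled total) divided by gene length in kilobases (RPKM), Ace was the highest member in both sexes, with 248 ± 16.6 RPKM in female and 405 ± 35.8 RPKM in male libraries (SD, n = 3 each, as for all values below). By mean RPKM it ranked 126th in female and 78th in male libraries among the 25883 genes with a count. Npr2 came next with 26.8 ± 2.41 RPKM in female and 31.6 ± 0.316 RPKM in male libraries. The other 8 members stood between 0.00511 RPKM (Agtr1a) and 4.85 RPKM (Npr3) in female libraries, and between 0.0642 RPKM (Mme) and 8.29 RPKM (Nppc) in male libraries.

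The sexes were compared with edgeR's quasi-likelihood test over 14932 genes, and a gene was called at a Benjamini-Hochberg adjusted p under 0.05. Of the 10 members 7 passed the filter on low counts, and of these Npr1 and Npr3 were called higher in female, Agt, Nppc and Ace lower, and Npr2 and Mme in neither direction, which makes 2 higher and 3 lower. Over all genes tested, 9.68% were called higher and 8.62% lower in female, 18.3% in all. Agtr1a, Agtr1b and Nppb had too few counts to be tested. Female and male libraries did not overlap for 8 of the 10 members, 2 higher and 6 lower in female, and of all genes with a count 12.6% stood apart in this way as higher and 11.5% as lower. The median log2 fold change of the 7 tested members was -0.23, the value of the uncalled Npr2, beside -0.01 over all genes tested. With 2 members called higher and 3 lower, it describes no common shift.

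**Figure D1:**
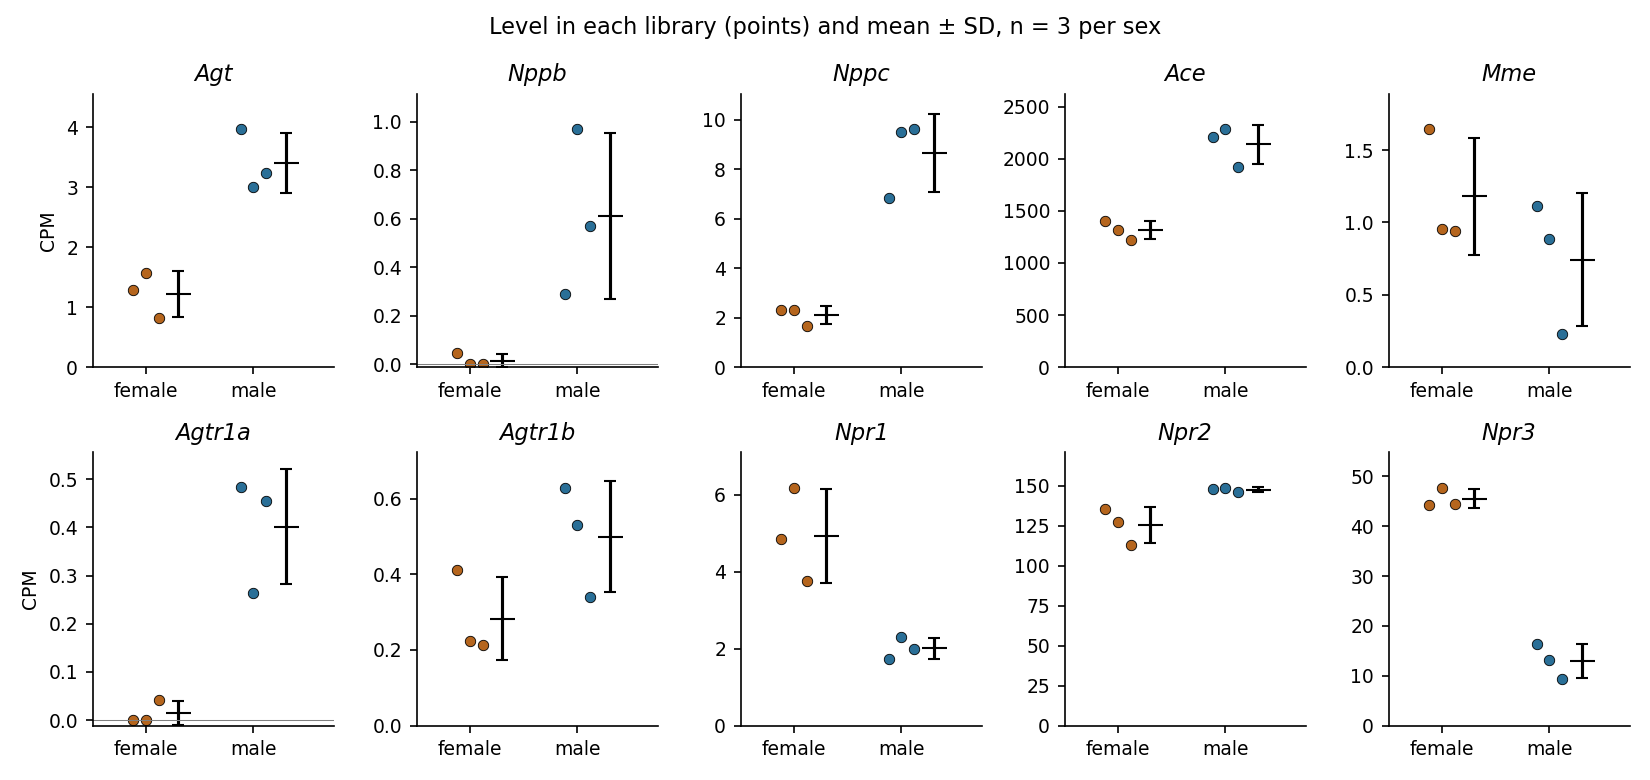
Scaled counts (CPM, linear axes) of the 10 genes in each of 3 female and 3 male libraries, with mean and SD beside the points. Female libraries lie below male ones for Agt, Nppb, Nppc, Ace, Agtr1a and Npr2, above them for Npr1 and Npr3, and overlap them for Mme and Agtr1b.

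Among the peptide genes, Agt (chr8:124556534-124569706, minus strand), the single source of all angiotensins, stood at 1.28, 1.57 and 0.811 CPM in female libraries, against 3.97, 3.00 and 3.24 CPM in male libraries. All 3 female libraries lay below all male ones. These levels rest on 75 counts over the female and 207 over the male libraries. The log2 fold change of female over male was -1.49 ± 0.33 (SE, edgeR adjusted p = 0.0115), with a 95% interval of -2.23 to -0.74.

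Nppc (chr1:86666291-86670571, minus strand), which encodes C-type natriuretic peptide, had the lowest fold change of the tested members. It stood at 2.33, 2.30 and 1.67 CPM in female libraries, against 6.82, 9.49 and 9.61 CPM in male libraries. The lowest male library thus stood above the highest female library. The log2 fold change was -2.04 ± 0.24 (edgeR adjusted p = 0.000249).

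Nppb (chr4:147985788-147987205, plus strand), which encodes the B-type peptide of heart muscle, was near the limit of detection. It had 1, 0 and 0 counts in female libraries, against 6, 22 and 10 counts in male libraries, where the highest library had over 3 times the count of the lowest. Over each sex this made 1 count in female and 38 in male libraries, and the female level was 0.0254 times the male one with a 95% counting interval (exact binomial) of 0.000627 to 0.150. Where a library has 0 counts the level may be up to 0.128 to 0.171 CPM (a floor of 3 counts), and such floors and counting intervals hold for counting error only. The gene did not pass the filter, and without the filter edgeR gave an adjusted p of 0.00451. With a single library left out it passed the filter in 4 of 6 fits, in each through male replicates 2 and 3 alone. As the filter was met only in the group where the gene is high, these fits add no support. In them edgeR called it lower without female replicate 1 (adjusted p = 0.0376) and without male replicate 1 (0.0133). It was not called without female replicate 2 (0.0556) or 3 (0.0576). The exact permutation test over libraries gave a two-sided p of 0.1, the smallest that 3 against 3 can give. The atrial peptide gene Nppa had 3 counts in 1 female library and 0 in the other 5.

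Of the peptidases, Ace (chr11:105967945-105989964, plus strand) was abundant in every library and fell in female. It stood at 1399, 1317 and 1224 CPM in female libraries, against 2208, 2284 and 1925 CPM in male libraries, with no overlap. The log2 fold change was -0.70 ± 0.12 (edgeR adjusted p = 0.00223), so the female level was 0.614 times the male one. With 23419 to 51748 counts per library, counting error is a small part of this spread. Gene-level counts do not separate the somatic form of the enzyme from the shorter testis form. Of genes overlapping Ace on the opposite strand, Gm11651 had 8 counts over all 6 libraries.

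Mme (chr3:63241537-63386030, plus strand) was scarce, with 1.64, 0.956 and 0.940 CPM in female libraries, against 1.11, 0.883 and 0.228 CPM in male libraries. The ranges overlap. Its log2 fold change was 0.65 ± 0.57 (edgeR adjusted p = 0.505), with a 95% interval of -0.63 to 1.93, which includes differences of either sign.

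Of the receptors for angiotensin, Agtr1a (chr13:30336441-30382867, plus strand) had 0, 0 and 1 counts in female libraries, against 10, 6 and 8 counts in male libraries. No female library reached the lowest male one. The female level was 0.0402 times the male one (95% counting interval 0.000978 to 0.247). Its exact permutation p was 0.1 (two-sided, the smallest possible), and without the filter edgeR gave an adjusted p of 0.0630, so it was not called there.

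Agtr1b (chr3:20314473-20367177, minus strand) had 9, 4 and 5 counts in female libraries, against 13, 12 and 6 counts in male libraries. The female level was 0.560 times the male one, with a 95% counting interval of 0.295 to 1.03 and an exact permutation p of 0.2 (two-sided). The transcripts of the 2 receptors are alike but not identical. Of all 50-base stretches in the Agtr1a transcripts, 1.13% also occurred in those of Agtr1b, so few reads of that length could belong to either.

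The receptors for natriuretic peptides went in different directions. Npr3 (chr15:11839896-11907287, minus strand), the clearance receptor, stood at 44.3, 47.7 and 44.5 CPM in female libraries, against 16.3, 13.2 and 9.33 CPM in male libraries. The female libraries lay close together and well above every male one, and the level was 3.50-fold higher (1.81 ± 0.19 as log2, edgeR adjusted p = 0.000117).

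Npr1 (chr3:90450591-90465866, minus strand), the cyclic GMP-making receptor for atrial and B-type peptide, stood at 4.84, 6.18 and 3.76 CPM in female libraries, against 1.74, 2.30 and 1.99 CPM in male libraries. The sexes did not overlap, and the spread was wider among the female libraries. The log2 fold change was 1.29 ± 0.27 (edgeR adjusted p = 0.00887). Without female replicate 2, the library with the highest level, it was 1.09 with an edgeR adjusted p of 0.0561, and the gene was then not called.

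Npr2 (chr4:43631935-43651244, plus strand), the receptor for C-type peptide, had the log2 fold change closest to 0 of the 7 tested members. It stood at 135, 127 and 113 CPM in female libraries, against 148, 149 and 146 CPM in male libraries. The female libraries all lay below the male ones, but by less than the test required (log2 fold change -0.23 ± 0.11, edgeR adjusted p = 0.170). Its 95% interval ran from -0.47 to 0.00112. The antisense gene Gm12473 covers the 5′ end of Npr2, extends inside it to chr4:43641533 and had 738 counts over all 6 libraries. Whether reads were assigned by strand is not stated, so reads of the pair may be mixed.

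**Figure D2:**
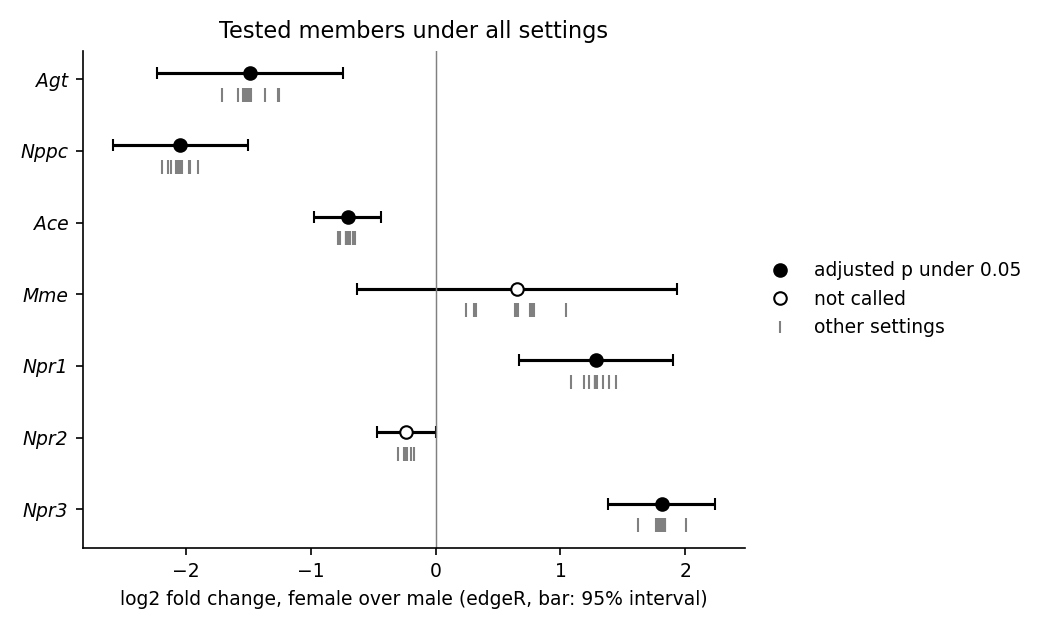
Log2 fold change of female over male for the 7 tested genes, with 95% intervals from edgeR (filled, adjusted p under 0.05) and the value under each other setting as grey ticks. Each gene keeps its sign under every setting, and the ticks of Agt, Nppc and Ace all lie below 0 and those of Npr1 and Npr3 above it.

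Shares within a library do not depend on how libraries are scaled to each other. Of the summed RPKM of Npr1, Npr2 and Npr3, the clearance receptor Npr3 made up 13.6%, 15.1% and 15.9% in female libraries, against 5.14%, 4.18% and 3.04% in male libraries. Npr1 made up 3.13% ± 0.628 in female and 1.26% ± 0.172 in male libraries. Npr2 remained the main receptor transcript, with 82.0% ± 1.30 in female and 94.6% ± 0.970 in male libraries. The sexes did not overlap for any of the 3 shares, and each exact permutation test gave the smallest p that 3 against 3 allows (two-sided p = 0.1). As parts of the same sum, the shares are tied, and that of Npr2 is fixed by those of Npr1 and Npr3. It is no separate result. Agtr1a made up 0%, 0% and 13.4% of the summed RPKM of Agtr1a and Agtr1b in female libraries, against 37.2%, 27.8% and 50.7% in male libraries (two-sided exact permutation p = 0.1). Each of these last shares rests on 4 to 23 reads.

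**Figure D3:**
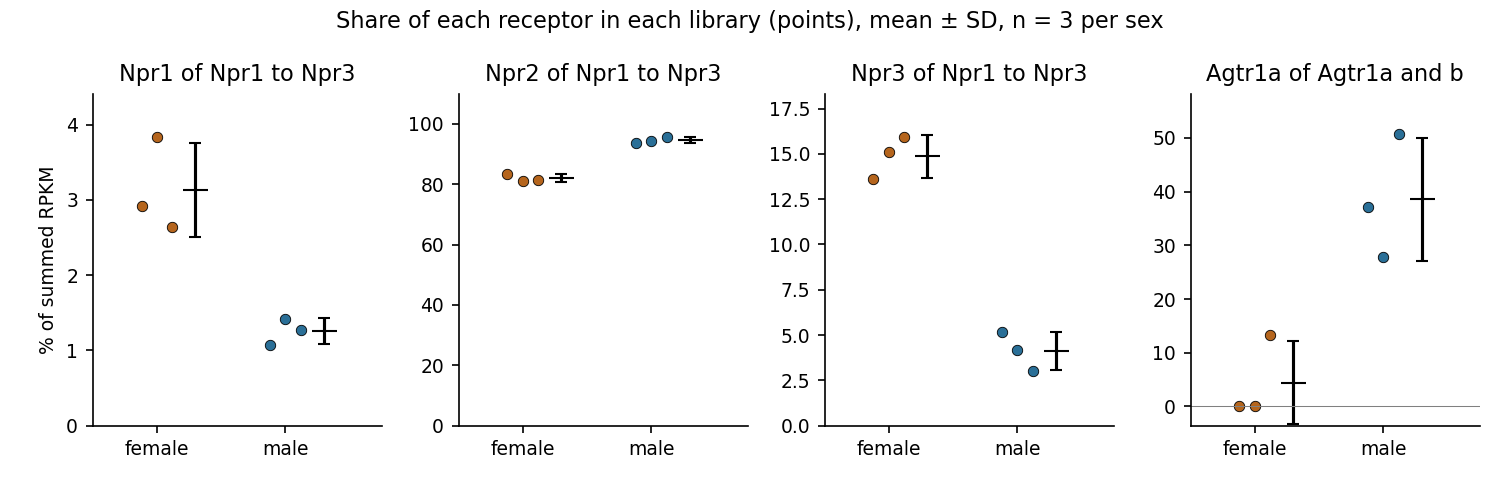
Share (%, linear axes) of Npr1, Npr2 and Npr3 in their summed RPKM, and of Agtr1a in that of Agtr1a and Agtr1b, in each of 3 female and 3 male libraries with mean and SD. The Npr3 share lies at 13.6% or more in female libraries and at 5.14% or less in male libraries.

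Among 24 other genes listed for the angiotensin pathway and found in the table, 14 were tested. They include Ogfr, which no angiotensin step needs. EdgeR called 0 of the 14 higher in female, 2 lower and 12 in neither direction, beside 18.3% called of all genes tested. At the median of the 14 the log2 fold change was -0.03. Those that fell included Agtr2, the X-linked gene of the type 2 receptor, whose actions oppose those of type 1. It stood at 21.1, 21.6 and 19.9 CPM in female libraries, against 78.5, 63.8 and 73.5 CPM in male libraries (-1.78 ± 0.12 on the log2 scale, adjusted p in edgeR 7.38e-06). Per length Agtr2 was at 6.28 ± 0.260 RPKM in female and 21.6 ± 2.26 RPKM in male libraries, above both Agtr1a and Agtr1b in either sex. The other was Anpep, an aminopeptidase that trims angiotensin III, with 24.7 ± 2.40 CPM in female, against 64.1 ± 2.56 CPM in male libraries (-1.37 ± 0.12, edgeR adjusted p = 3.06e-05). Ren1, the renin gene, had 0 counts in all 6 libraries. Mas1, the gene of the angiotensin 1-7 receptor, varied within each sex, with 34, 28 and 10 counts in female and 27, 18 and 0 counts in male libraries. The carboxypeptidase gene Ctsa (0.38 ± 0.12, edgeR adjusted p = 0.0607) was not called, but was higher by DESeq2 (adjusted p = 0.0271). Among the fits with a library left out, Ctsa was called higher only without male replicate 3 (edgeR adjusted p = 0.000174).

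Kinins are vasodilator peptides that Ace also degrades. Of 19 genes of the kinin system and other peptidases, 14 were tested. Of these 4 were higher in female, 1 lower and 9 not passing (median log2 fold change -0.05), beside 18.3% called of all genes tested. The kininogen genes Kng2 and Kng1 rose by 2.64 ± 0.29 and 1.38 ± 0.24 (edgeR adjusted p = 0.000179 and 0.00262). They are related genes whose shared sequence was not measured, so reads may be divided between them in error. The bradykinin receptor genes Bdkrb1, at 12.6 ± 1.50 CPM in female against 8.32 ± 0.952 CPM in male libraries, and Bdkrb2, at 32.3 ± 1.84 CPM in female against 22.8 ± 2.50 CPM in male libraries, rose less (0.60 ± 0.17 and 0.50 ± 0.13, edgeR adjusted p = 0.0344 and 0.0244). Ide, an insulin- and natriuretic peptide-degrading protease, fell by 0.45 ± 0.12 (edgeR adjusted p = 0.0328). Leaving out a single library ended the call of Bdkrb2 (female replicate 1, 2 or 3 or male replicate 1, edgeR adjusted p 0.0660 to 0.107), of Bdkrb1 (female replicate 1 or 2 or male replicate 1 or 2, 0.0927 to 0.165) and of Ide (any library but male replicate 3, 0.0754 to 0.129).

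Among 23 other genes of natriuretic peptide processing, cyclic GMP signalling and cartilage responses to C-type peptide, 15 were tested. Of these 2 were called higher in female, 7 lower and 6 in neither direction, at a median log2 fold change of -0.56. Over all genes tested, 18.3% were called. Prkg2, a cyclic GMP-dependent kinase that acts in the response of cartilage to C-type peptide, stood at 20.4, 20.4 and 24.5 CPM in female libraries, against 79.7, 83.1 and 84.0 CPM in male libraries (-1.92 ± 0.12, edgeR adjusted p = 4.14e-06). Gucy1b1, the beta subunit of the nitric oxide-sensitive guanylate cyclase, stood at 0.274, 0.787 and 0.342 CPM in female libraries, against 2.23, 3.13 and 3.24 CPM in male libraries (-2.64 ± 0.46, edgeR adjusted p = 0.00299). Female counts were 6, 14 and 8 for Gucy1b1 and 20, 8 and 15 for Fgfr3, also among the 7 lower. Both met the filter only in the male group, where they were high, so these calls add no support. The partner subunit of Gucy1b1, Gucy1a1, was not tested and had 3 counts in female and 55 in male libraries.

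Of the listed phosphodiesterase genes, whose products degrade cyclic GMP, Pde5a fell by 1.70 ± 0.21 as log2 and Pde1a by 0.56 ± 0.12 (edgeR adjusted p = 0.000359 and 0.00852). Pde3a was not called, at 30.7 ± 5.44 CPM in female, against 25.7 ± 6.92 CPM in male libraries (0.26 ± 0.21, edgeR adjusted p = 0.481). Pde1c, Pde2a and Pde9a were not tested, with 25, 0 and 0 counts in female and 9, 1 and 21 counts in male libraries. The exporter gene Abcc4 fell by 1.69 ± 0.18 (edgeR adjusted p = 0.000133). Of the cartilage genes, Fgfr3 fell by 1.56 ± 0.43 and Sox9 by 0.64 ± 0.10, while Fgfr2 rose by 1.25 ± 0.15 (edgeR adjusted p = 0.0310, 0.00183 and 0.000269). Fgfr3 was not called without female replicate 2 or 3 or male replicate 2 or 3 (edgeR adjusted p 0.0583 to 0.112), nor Pde1a without female replicate 2 (edgeR adjusted p = 0.0513). Pcsk6, a proprotein convertase that activates the atrial peptide's protease corin, rose by 1.95 ± 0.25 (edgeR adjusted p = 0.000388). Corin itself had 0 counts in female and 4 in male libraries. The convertase gene Furin was not called (0.39 ± 0.12, edgeR adjusted p = 0.0520), but was higher by DESeq2 (adjusted p = 0.0255). Among the fits with a library left out, Furin was called higher only without male replicate 3 (edgeR adjusted p = 0.0150).

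Of 27 genes that couple the angiotensin receptor to its signals, 26 were tested. Of these 2 were higher in female, 3 lower and 21 not passing (median log2 fold change -0.08), beside 18.3% called of all genes tested. Arrb1, an arrestin that desensitises such receptors, fell by 1.12 ± 0.19 (edgeR adjusted p = 0.00281). The other calls were smaller, with Plcb3 at -0.42 ± 0.09, Gnai2 at -0.44 ± 0.12, Adam17 at 0.37 ± 0.10 and Rgs5 at 0.44 ± 0.12 (edgeR adjusted p = 0.0113, 0.0272, 0.0300 and 0.0314). Each of these 4 calls was lost without female replicate 1, 2 or 3 or male replicate 2 (edgeR adjusted p 0.0554 to 0.145), and that of Adam17 also without the filter (edgeR adjusted p = 0.0517). The G protein gene Gnaq, through which the type 1 receptor acts on phospholipase C, was not called (-0.21 ± 0.16, edgeR adjusted p = 0.433). Among the fits with a library left out, it was called only without male replicate 3 (-0.38, edgeR adjusted p = 0.00347).

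**Figure D4:**
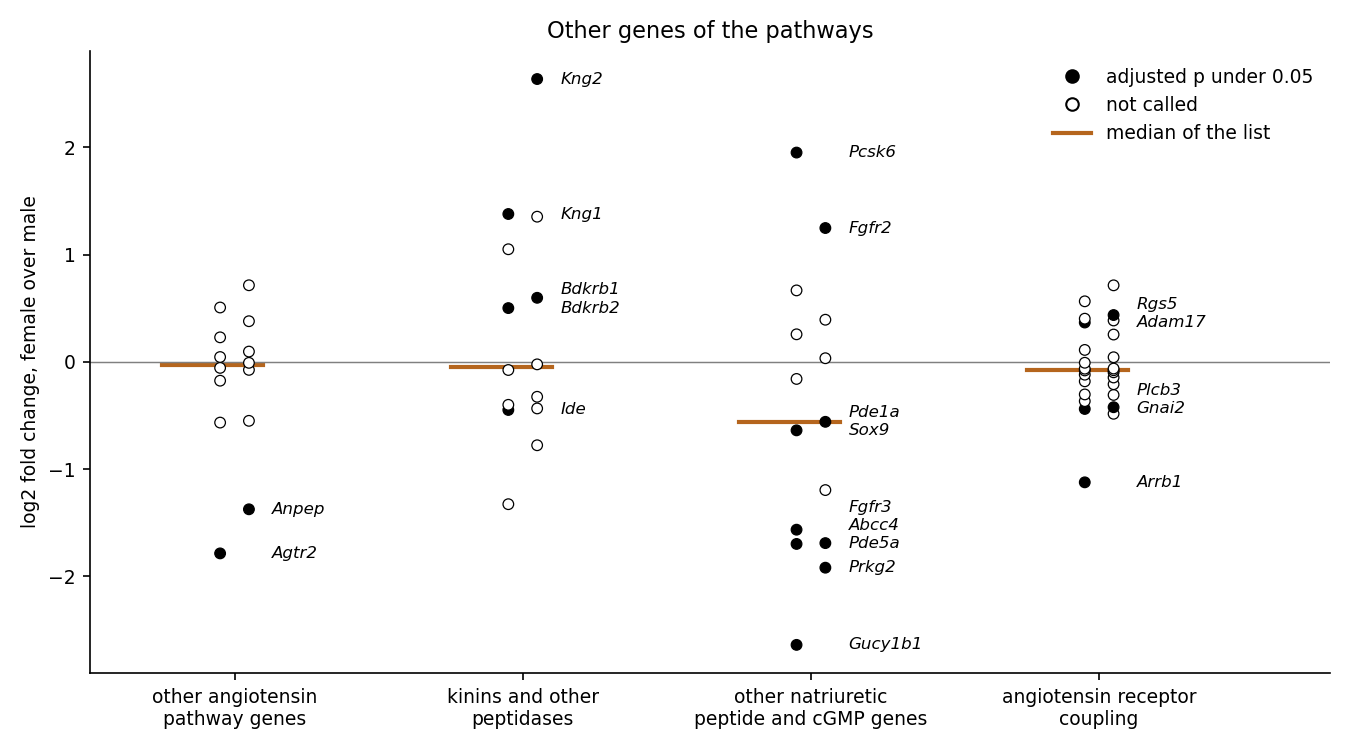
Log2 fold change of female over male (linear axis) for the tested genes of 4 lists, with called genes filled and named and the median of each list as a line. The natriuretic peptide and cyclic GMP list has its median at -0.56, and the other 3 medians lie between -0.08 and -0.03.

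Over the 6 libraries, the genes whose log2 CPM most resembled a called member's were taken from the 14931 other tested genes. They were Col4a5, Cdr2l and Nnat for Ace (Pearson r 0.998 to 0.999), Rhobtb2, Gpsm2 and Pkia for Nppc (0.998 to 0.999), and Chchd10, Gpat3 and Plpp3 for Npr3 (0.998 to 0.999). For Agt they were Slc16a6, Ccdc71l and A930001C03Rik (0.988 to 0.991), and for Npr1 Ssbp3, Tbc1d20 and Car11 (0.992 to 0.993). All of these values share the same 6 libraries and are set largely by the split between the sexes.

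The libraries held 17410996 to 22993574 counts, and Xist and 4 Y-linked genes followed the labelled sex in all 6. Defining endothelial genes did not mark the cultures, since of 16 endothelial markers 14 never reached 1 CPM, and 0 counts were found for Cdh5, Robo4, Cldn5 and Tie1. Their summed level was 59.1 to 68.0 CPM in female, against 164 to 202 CPM in male libraries, and a single gene, Plvap, made most of that difference (3.52 ± 0.391 CPM in female, 112 ± 30.5 CPM in male libraries, edgeR adjusted p = 9.07e-07). Flt1, the other endothelial marker above 1 CPM, was not called (57.9 ± 4.83 CPM in female, 70.2 ± 12.5 CPM in male libraries), and Nos3 had 28 counts in female and 2 in male libraries.

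Markers of other cell types moved in both directions within their lists. Beside the counts that follow, 9.68% of all genes tested were called higher and 8.62% lower in female. Of 12 fibroblast markers edgeR called 6 higher in female, 2 lower and 4 in neither direction, and they summed to 11853 to 12725 CPM in female, against 6556 to 7155 CPM in male libraries. Col3a1 had the highest level of the 12 in both sexes (4976 ± 227 CPM in female, 2014 ± 166 CPM in male libraries). Lum stood at 413 ± 12.7 CPM in female, against 14.3 ± 2.48 CPM in male libraries (4.85 ± 0.15 as log2, edgeR adjusted p = 1.85e-07). Dcn, Fbln1 and Pi16 rose by 1.84 ± 0.11, 1.36 ± 0.11 and 1.99 ± 0.14 (edgeR adjusted p = 3.21e-06, 1.75e-05 and 1.03e-05). The 2 lower genes were Thy1 (205 ± 5.26 CPM in female, 290 ± 43.2 CPM in male libraries) and Tcf21, with 0 counts in female and 375 in male libraries. Tcf21 thus met the filter only through its male libraries, and its call adds no support. Col1a1 and Col1a2 were not called. Of 12 smooth muscle and pericyte markers 9 were tested, with 1 higher and 2 lower, and their sums overlapped, at 1818 to 1859 CPM in female, against 1813 to 2185 CPM in male libraries. Rgs5 was the higher one (1312 ± 38.0 CPM in female, 970 ± 121 CPM in male libraries), while Pdgfrb fell by 1.24 ± 0.13 and Acta2 by 2.64 ± 0.26 as log2 (edgeR adjusted p = 9.19e-05 and 7.60e-05).

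Of 10 leukocyte markers, Ptprc, Itgam, Cd3e and Fcgr1 had 0 counts in all 6 libraries, and the sum of 29.6 to 38.6 CPM in female, against 12.9 to 19.2 CPM in male libraries, was mostly Cd14 (17.9 ± 2.82 CPM in female, 7.70 ± 1.26 CPM in male libraries) and Lyz2 (12.7 ± 2.45 CPM in female, 5.22 ± 1.94 CPM in male libraries). Of 10 adipocyte markers 5 were tested, with 1 called higher (Cd36) and 3 lower (Plin4, Pparg and Lpl), beside 18.3% called of all genes tested. Cidec and Lep were at 0, and the adipocyte sum was 57.4 to 64.1 CPM in female, against 99.1 to 112 CPM in male libraries. The 10 mesothelial and epicardial markers summed to 89.6 to 98.8 CPM in female, against 106 to 116 CPM in male libraries, with Krt18 called higher and Tcf21, which is also in the fibroblast list, lower, and Lrrn4 at 0. The 10 cardiac muscle markers summed to 0.900 to 1.14 CPM in female, against 1.59 to 2.28 CPM in male libraries, with Tnni3 the only one tested (lower in female) and Myh7 and Myl7 at 0. Krt18, with 5, 12 and 13 counts in male libraries, met the filter only through its female libraries. Tcf21 and Tnni3 (7, 8 and 8 counts in female libraries) met it only through their male libraries. The calls of Krt18, Tcf21 and Tnni3 therefore add no support. The part of these marker differences in the results for the peptide system was not tested, and in bulk libraries fewer cells of a type and less RNA per cell cannot be told apart.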

How the data were processed

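The authors deposited raw counts, whole numbers of reads for each gene in each of the 6 libraries. HISAT2 2.0.5 and featureCounts 1.5 are named in the submitters' processing notes. The build and the strand option are not stated there. All 10 members had the coordinates and strand of GENCODE M21 (GRCm38). Of the gene identifiers found there, 98.3% had the same coordinates, and strand was not compared for them.

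Genes were tested with edgeR 4.0.16 (R 4.3.3) on all 6 libraries, using its quasi-likelihood test (robust dispersions, TMM scaling, filterByExpr with a minimum count of 10), with Benjamini-Hochberg adjustment over the 14932 genes tested. CPM uses TMM-scaled totals, and RPKM divides it by the deposited gene length. The SE is that implied by the F statistic. The fit was repeated with DESeq2 1.42.0, limma-voom (limma 3.58.1), RLE or upper quartile scaling, other filters, a replicate block, a stricter threshold and leaving out each library. A correction for the length and GC content of genes was chosen after seeing the data. Tested on simulated data of the same 2 groups (14604 genes), this fit found 67.4% of 95 genes set to change 2-fold and 85.7% of 98 set to change 4-fold, and 12 of 160 calls were wrong.

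Members and gene lists were chosen with earlier results of these data known. Of the list entries, Ren2 was not found, Irag1 was matched as Mrvi1, and Ogfr, which no angiotensin step needs, was kept. The rule for named genes took the members, up to 4 tested genes per list (smallest p), and the 3 most like each called member. Other list genes were named after their values were seen. The rule also took Ogfr, Pecam1, Smtn, Tbx18, Aldh1a2, Csf1r and Cd68, which were not called and are given no values here. Replicates of a sex differed beyond sampling noise (chi-square per degree of freedom 7.43 to 70.8). A promoter entry was found for 9 members in the RefSeq table. Motif searches and peptide-coding bases were taken by script from it and from the GENCODE M21 transcripts.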

Additional observations from a re-analysis of the deposited data

How the results depend on the processing

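The sign of all 7 tested members held under every alternative that tested them, and the calls of Agt, Ace, Npr3 and Nppc held too at an adjusted p under 0.05 (Agt and Mme were not tested at a mean of at least 50 counts). At an adjusted p under 0.01, 2 members were called higher and 2 lower. Leaving out each library gave a log2 fold change of 1.09 to 1.44 for Npr1, which was not called without female replicate 2. It gave 1 to 2 members called higher and 3 to 4 lower, the added one being Nppb. Nppb passed the filter there only through its male counts. Limma-voom with quality weights called Npr2 lower (-0.24, adjusted p = 0.0141). It also called 3289 genes higher and 3283 lower, and at an adjusted p under 0.01 edgeR called 900 and 835. Leaving out each library gave 967 to 2511 genes higher and 903 to 2540 lower, with both highest values without male replicate 3, which correlated least with the other male libraries (0.974 and 0.982, against 0.992 between those).

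Counts in the pathway lists moved more. Of other angiotensin genes, 1 was called higher by DESeq2, 3 by limma-voom, and 2 each with no filter, the replicate block and the length and GC offset, and limma-voom called 5 lower. Of kinin and peptidase genes, 2 were higher at an adjusted p under 0.01, and those lower numbered 3 with DESeq2, 4 with limma-voom, 3 with no filter, 2 with the replicate block, 3 with the length and GC offset and 0 at an adjusted p under 0.01. Of coupling genes, those higher numbered 4 with DESeq2, 6 with limma-voom, 4 with the replicate block, 4 with the length and GC offset and 0 at an adjusted p under 0.01, and those lower 5 with DESeq2, 9 with limma-voom, 6 with the offset and 1 at an adjusted p under 0.01. Leaving out each library gave 0 to 2 angiotensin genes higher and 2 to 5 lower, 2 to 4 kinin and peptidase genes higher and 0 to 4 lower, and 0 to 5 coupling genes higher and 1 to 9 lower. In these 3 lists each highest number was reached without male replicate 3, and the cause was not tested. Counts in the natriuretic peptide list stayed within 1.5 times. For single pathway genes named above, 293 values kept their side of the threshold, 35 lost the call and 20 gained it, all in the same direction.

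Whether the replicate numbers pair the libraries was not settled, since deviations of same-numbered libraries correlated at 0.262, -0.0324 and 0.180. The replicate block changed no member's call, and exact sign flips of the receptor shares gave 0.25, the smallest that 3 pairs allow. Members under the filter have 25 to 49 counts over 6 libraries, which limits them to the counting intervals given.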
